A study of Mus musculus with 18 samples.

Results

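The DNA replication genes are a set of 38 genes that load, start, copy and finish DNA synthesis, and they were taken by name from a list. The list uses no measured value, but it was chosen with earlier results of these data known. All 38 were present among the 32286 gene features of the count tables. Gene expression was read in single cells from the 3′ ends of transcripts on the 10x Genomics platform. A barcode marks the droplet of each transcript, and a unique molecular identifier (UMI) lets copies of 1 molecule be counted once. The cells were sorted for GFP from ileal crypts of C57Bl6 mice 60 to 65 days old, collected 5 days after 1 injection of 70 mg/kg tamoxifen. In the Lgr5+ experiment, the group Lgr5+WT came from Lgr5-GFP-CreERT2 mice and the group Lgr5+Setdb1KO from mice that also carried Setdb1lox/lox. In the lineage-traced experiment, the WT group was Lgr5-GFP-CreERT2/nTnG and the Setdb1-KO group was Lgr5-GFP-CreERT2/Setdb1lox/lox/nTnG. Each of these 4 groups had 2 libraries. All mice carried the Lgr5 knock-in allele, which drives GFP and the tamoxifen-inducible recombinase from the Lgr5 locus and is known to be silent in a share of crypts, and all received tamoxifen. The nTnG allele is a reporter that marks recombined cells and their progeny with GFP. Setdb1 encodes a methyltransferase of histone H3 lysine 9, and its exon 3 is the part that the recombinase removes.

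Replication begins when the origin recognition complex, Cdc6 and Cdt1 load the MCM helicase on DNA in G1. Cdc45 and the GINS complex then switch the helicase on, polymerase alpha and primase lay down primers, and the Pcna clamp, opened by the replication factor C loader, holds the copying polymerases on the template. Nucleotide enzymes such as ribonucleotide reductase feed the fork, and Chaf1, Uhrf1 and Dnmt1 restore nucleosomes and DNA methylation behind it. In the intestinal crypt, stem cells and their immediate progeny divide, and the cells that move on to the villus leave the cell cycle. Transcripts of many of these genes are known to be driven by E2F factors near the G1/S transition, whereas mitotic genes are known for a later peak.

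Promoter sequences are shown because they describe the members apart from any expression value. A window of 250 bases before to 50 bases after the start site was given for 32 of the 38 members in RefSeq (GRCm38.p6), with 1 to 3 windows per gene. Gins1, Gins2, Mcm4, Pole, Prim2 and Rfc2 are named only. The letters TTTCCCGC, TTTCGCGC, TTTGCCGC and TTTGGCGC, which are E2F-type letters and were searched on both strands, were present in 16 of these 32 members (50%). The same letters were present in 704 of 27025 genes with a window (2.61%), in 11 of 41 other replication genes (26.8%), in 7 of 20 genes of G1/S control (35%) and in 1 of 24 mitosis genes (4.17%). The letters CCAAT, which can lie anywhere in the window and on either strand, were present in 62.5% of members and 41.1% of all genes. They were present in 83.3% of the mitosis genes, 53.7% of other replication genes and 50% of G1/S control genes. The letters TTTGAA were present in 12.5% of members, 20.2% of all genes and 79.2% of the mitosis genes. A match is a description of letters and was not tested as a binding site. The stretches of 10 role genes with a match follow, 1 match per gene, each read 5′ to 3′ on the strand of its gene with the matched letters in capitals.
Mcm5 (helicase subunit, chr8:75109345-75109374, plus strand): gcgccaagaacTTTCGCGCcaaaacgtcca
Mcm6 (helicase subunit, chr1:128359793-128359822, minus strand): gtatgcttttgGCGCGAAAagtgcgtgcgg
Cdc6 (helicase loader, chr11:98908002-98908031, plus strand): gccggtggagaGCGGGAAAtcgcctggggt
Cdt1 (helicase loader, chr8:122568036-122568064, plus strand): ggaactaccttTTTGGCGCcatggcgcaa
Pola1 (catalytic subunit of polymerase alpha, chrX:93632275-93632304, minus strand): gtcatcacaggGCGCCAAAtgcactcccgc
Lig1 (ligase of Okazaki fragments, chr7:13278841-13278870, plus strand): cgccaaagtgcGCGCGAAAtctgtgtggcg
Hells (chromatin remodeller, chr19:38930917-38930946, plus strand): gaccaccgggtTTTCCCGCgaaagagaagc
Uhrf1 (reader of hemimethylated DNA, chr17:56304117-56304146, plus strand): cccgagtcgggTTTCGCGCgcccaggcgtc
Dnmt1 (maintenance DNA methyltransferase, chr9:20952824-20952853, minus strand): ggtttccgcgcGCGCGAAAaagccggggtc
Pclaf (Pcna-binding factor, chr9:65890307-65890336, plus strand): gcttggagcgcGCGGGAAAgagacccattt
The Mcm5 and Mcm6 stretches each hold a further match that overlaps the one in capitals. A separate match of Mcm6 (at -47) and of Dnmt1 (at 33) and the matches of Mcm3, Mcm7, Dtl, Rfc3, Pold1 and Clspn are not printed. The first matched letter lay 153 bases before the start site in Mcm5 (position -153), at -106 in Mcm6, at -138 in Cdc6 and in Pola1, and at -5 in Pclaf. Of the role genes described below, Mcm2, Pcna, Prim1, Rrm2, Tyms, Tk1, Ung and Slbp had a window without these letters.

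The libraries held 16881518 to 81876035 UMIs. After removal of barcodes outside 1000 (Lgr5+) or 500 (lineage-traced) to 18000 UMIs or with 5% or more mitochondrial UMIs, 2894 to 11423 cells were kept per library, with median UMIs of 4686 to 9336 per cell in the Lgr5+ experiment and 961 to 2085 in the lineage-traced one. Library pairs shared 3 to 34 barcodes, 0.104 to 0.449% of the smaller library. Cells received a class from the summed UMIs of marker genes that hold no member. Cells above no class limit are called no-class cells. One library stood apart: in lineage-traced WT replicate 2, 2157 of 3882 kept barcodes (55.6%) resembled free RNA. Paneth markers made up 34.99 and 37.82% of empty-droplet UMIs in the WT-labelled lineage-traced libraries, 16.5 and 14.6% in the Setdb1-KO-labelled ones and 4.73 to 9.86% in the Lgr5+ experiment. Only lineage-traced stem-like, precursor-like, no-class and mixed barcodes could be set aside as free RNA. The rule was a Paneth-marker share of at least 0.5 of that in the library's empty droplets, a higher limit in the WT-labelled libraries. Stem-like cells still held 67242 and 78847 CPM of Paneth markers in the WT-labelled and 16479 and 23428 CPM in the Setdb1-KO-labelled libraries. The part of this rule in genotype comparisons was not tested. Member transcripts were also in free RNA: their summed level in empty droplets was 53.2 to 69.3% of the level in cells of the same library, and the part of free RNA in the low levels of a class was not tested. Olfm4, a stem cell marker used for the classes, had 4771 to 6570 CPM in Lgr5+ stem-like and 22.3 to 169 CPM in enterocyte-like cells. In stem-like cells it had 6570 and 5993 CPM in Lgr5+WT and 5031 and 4771 CPM in Lgr5+Setdb1KO, without overlap. The part of this difference in genotype comparisons of stem-like cells was not tested. Between 320 and 1509 Lgr5+ and 775 and 1696 lineage-traced cells per library lay near a class limit, less than 25% above it or the matching distance below.

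Setdb1 itself was measured first as a check of the labels. In all kept Lgr5+ cells it had 10.9 and 10.3 CPM in WT (UMIs scaled to a common library total, with TMM factors between libraries) and 5.12 and 6.51 CPM in Setdb1KO, a log2 change of -0.85 (SE 0.14, edgeR adjusted p = 0.047). That call was lost in 7 of 12 alternative settings, among them without Lgr5+WT replicate 1 (adjusted p = 0.136), without Lgr5+WT replicate 2 (adjusted p = 0.103) and without Lgr5+Setdb1KO replicate 1 (adjusted p = 0.105). In all kept lineage-traced cells Setdb1 had 7.07 and 5.28 CPM in the libraries labelled WT and 7.91 and 7.17 CPM in those labelled Setdb1-KO (log2 change 0.24, adjusted p = 0.603), so that the level was not lower under the Setdb1-KO label. In Lgr5+ stem-like cells it had 12.8 and 12.7 CPM in WT and 4.14 and 7.71 CPM in Setdb1KO, without overlap (log2 change -1.05, SE 0.23, edgeR adjusted p = 0.0775), and the value was past the threshold in 6 of 13 alternatives. In lineage-traced stem-like cells it had 11.8 and 9.93 CPM (WT-labelled) and 9.13 and 9.93 CPM (Setdb1-KO-labelled), from 19, 4, 16 and 25 UMIs (log2 change -0.24, adjusted p = 0.981). The 3′ counts do not read the deleted exon 3 and do not show whether it was removed. The paper states that loss of this exon was verified by PCR in sorted GFP-positive cells from mice of both experiments. Whether the cells of these libraries were among those preparations was not tested. Because the counts do not show the deletion, the lineage-traced libraries are named below as labelled.

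Transcripts of the replication genes were concentrated in stem-like and no-class cells. In the Lgr5+ experiment the summed level of all 38 genes in stem-like cells was 2474 and 2310 CPM in WT and 2719 and 2404 CPM in Setdb1KO. No-class cells had 2267 and 2248 CPM in WT and 2641 and 2460 CPM in Setdb1KO. Enterocyte-like cells, the absorptive cells of the villus, had 358 and 468 CPM in WT and 606 and 539 CPM in Setdb1KO. All 4 libraries thus had a lower sum in enterocyte-like than in stem-like cells, and the ranges did not overlap. Goblet-like cells lay between them at 1057, 1171, 1011 and 1275 CPM in the 4 libraries. Stem-like and no-class cells together held 82.9 to 89.1% of all member UMIs in the Lgr5+ experiment and were 56.1 to 71.9% of kept cells. In the lineage-traced experiment they held 56.0 to 84.5% and were 23.2 to 69.0% of kept cells. The sum in lineage-traced stem-like cells was 1591 and 1455 CPM in the WT-labelled and 1469 and 1265 CPM in the Setdb1-KO-labelled libraries. The enterocyte-like sums there were 376, 413, 167 and 413 CPM. Because the values are sums over cells, fewer cells with transcripts and fewer transcripts per cell cannot be told apart in them.

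**Figure D1:**
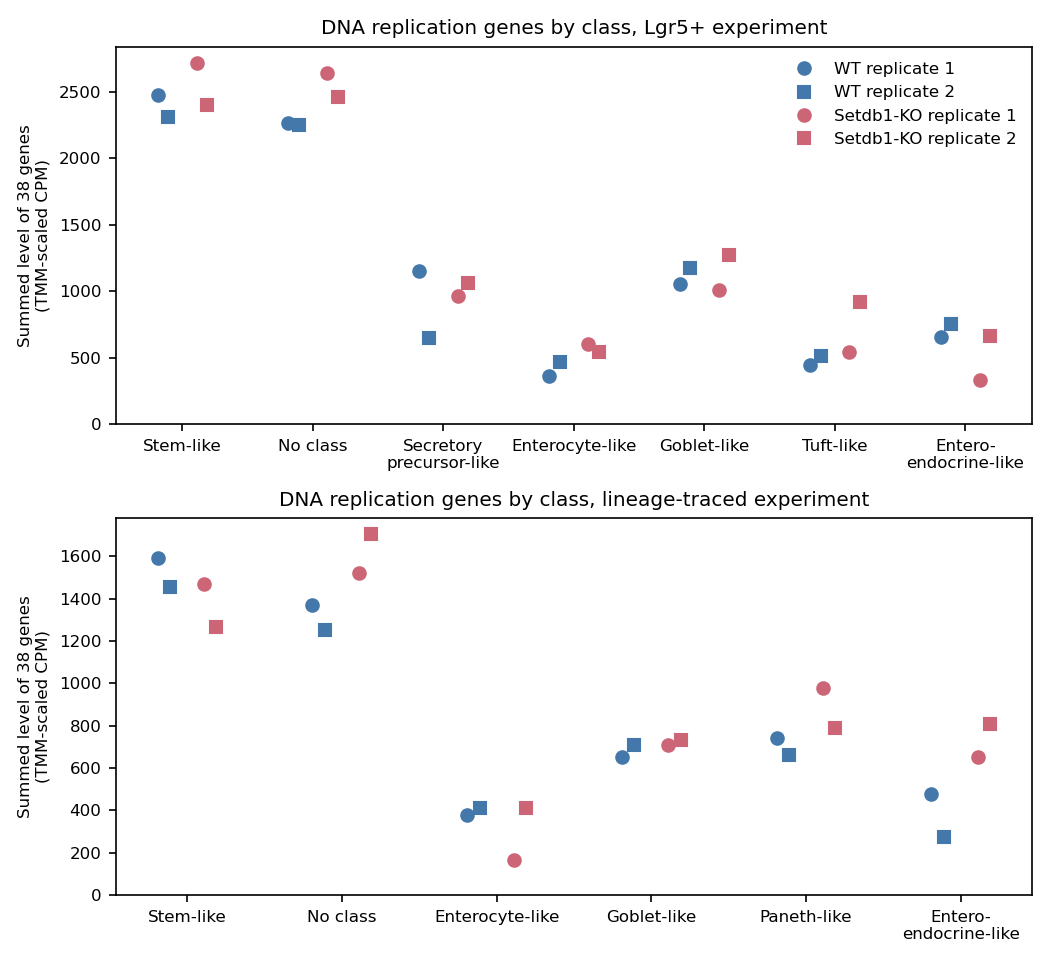
Summed level of the 38 genes (TMM-scaled CPM, y axis from 0) in each cell class (x axis), with 1 point per library, blue for WT and red for Setdb1-KO as labelled, circles for replicate 1 and squares for replicate 2, in the Lgr5+ (top) and lineage-traced (bottom) experiments. Stem-like and no-class cells lie above every other class in both panels, at 2248 to 2719 CPM in the Lgr5+ experiment.

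The share of single cells with many member UMIs was also higher in stem-like than in enterocyte-like cells. With each Lgr5+ cell thinned to 1000 UMIs, at least 4 member UMIs were found in 24.1 and 19.6% of WT stem-like cells and 26.9 and 20.0% of Setdb1KO stem-like cells. Without thinning, the same share of a cell's UMIs was reached in 18.4, 13.2, 18.7 and 14.4% of these cells. The thinned share was 0 to 2.55% in enterocyte-like cells, whose median UMIs per cell were 5174 to 11195 against 4047.5 to 8826 in stem-like cells. It was 0.935 to 3.13% in tuft-like and 1.08 to 3.92% in enteroendocrine-like cells. With lineage-traced cells thinned to 500 UMIs, at least 2 member UMIs were found in 25.4, 20.2, 24.0 and 19.1% of stem-like cells and 11.3, 10.3, 11.2 and 7.47% reached that share without thinning. No cell was left out by the thinning, since kept cells held at least that many UMIs. The thinned share was 2.56, 1.73, 3.70 and 3.91% in lineage-traced enterocyte-like cells and 1.25, 1.38, 1.68 and 0% in Paneth-like cells. Paneth-like cells had the higher TMM-scaled sums, so shares and sums did not order these classes alike. Libraries of both genotypes overlapped in stem-like cells of both experiments.

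All 38 members were lower in Lgr5+ enterocyte-like than in stem-like cells (32.5% of all 12270 genes were called lower in this comparison). The median log2 change was -2.95 over the members and -0.06 over all genes tested. All 38 were also lower in goblet-like cells (34.3% of all genes; median -1.15), tuft-like cells (24.1%; median -2.15) and enteroendocrine-like cells (29.3%; median -2.28). In secretory precursor-like cells 37 members were lower (19% of all genes; median -1.45), and Prim2, a primase subunit, was not called (-1.07, adjusted p = 0.0628). The largest drop in enterocyte-like cells was that of Dtl, a substrate receptor for the destruction of Cdt1 (log2 change -4.52), and the smallest was that of Slbp, which binds histone mRNA (-1.11). The median member kept 12.4% of its stem-like level in enterocyte-like, 20.8% in tuft-like, 21.8% in enteroendocrine-like, 35.3% in secretory precursor-like and 44.3% in goblet-like cells.

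**Figure D2:**
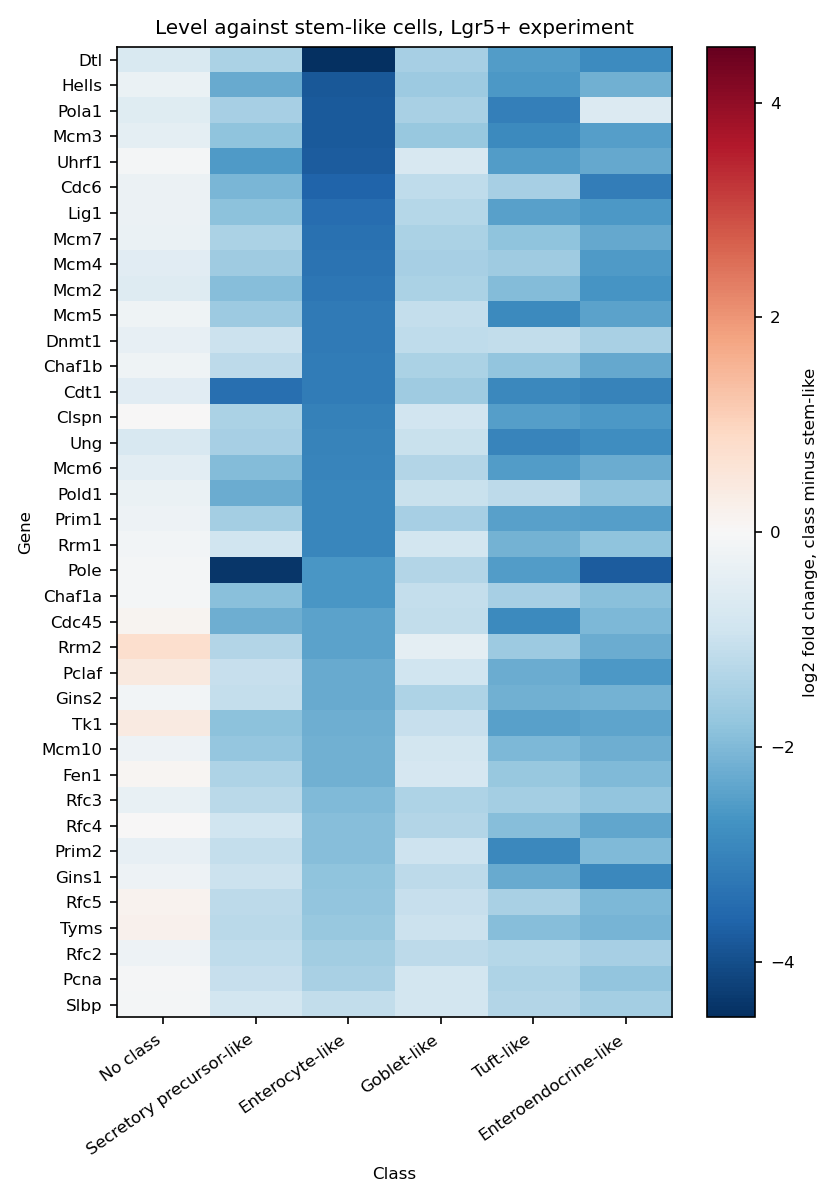
Log2 fold change of each class against stem-like cells in the Lgr5+ experiment, with genes in rows ordered by the enterocyte-like column, classes in columns and colour from blue (lower) to red (higher). The enterocyte-like column runs from -4.52 for Dtl to -1.11 for Slbp, and the reddest cells of the no-class column are those of Rrm2, Pclaf and Tk1.

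Helicase subunits and loaders were lower in enterocyte-like than in stem-like cells. Mcm2 had 39.8, 33.1, 45.3 and 34.9 CPM in stem-like cells of the 4 Lgr5+ libraries (WT first) and 2.74, 5.99, 2.57 and 4.92 CPM in enterocyte-like cells, without overlap (log2 change -3.25, SE 0.19). Mcm5 fell by 3.19 and Mcm6 by 2.99 on the log2 scale in the same comparison. The loaders Cdc6 and Cdt1 fell by 3.61 (SE 0.37) and 3.14 (SE 0.18). Cdc6 was near its detection floor in enterocyte-like cells, at 0, 1.09, 0.642 and 1.54 CPM. Adjusted p-values of these 5 genes were all below 0.05 in edgeR's quasi-likelihood test with the library as a block.

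The polymerases and clamp differed among themselves in how much was left. Pola1, the catalytic subunit of polymerase alpha, fell by 3.80 (SE 0.27) in enterocyte-like cells but by 0.60 in enteroendocrine-like cells, the smallest drop of any member there, and that call was lost with doublets removed. Prim1, a primase subunit, fell by 2.95 and the ligase Lig1 by 3.44 in enterocyte-like cells. Pcna, the sliding clamp, had 140, 139, 169 and 132 CPM in stem-like cells and 40.2, 43.5, 63.2 and 56.0 CPM in enterocyte-like cells (log2 change -1.47, SE 0.10). In the same class Uhrf1 had 0, 2.18, 0.963 and 2.15 CPM. The genes that act on chromatin fell by 3.83 (Hells), 3.74 (Uhrf1) and 3.18 (Dnmt1). Ung, which removes uracil from DNA, fell by 3.02 (SE 0.17).

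Members that make nucleotides were lower in goblet-like cells. Rrm2, the regulated subunit of ribonucleotide reductase, fell there by 0.44 (SE 0.13, adjusted p = 0.00231 in edgeR), the smallest change of any member, and the call was lost in DESeq2. Rrm1, its large subunit, fell by 0.84, Tyms, which makes thymidylate, by 0.98 and Tk1, the thymidine kinase, by 1.05. Pclaf had 275, 284, 243 and 236 CPM in stem-like cells against 135, 155, 104 and 163 CPM in goblet-like cells (log2 change -0.90). Libraries of Rrm2, Tyms, Tk1 and Pclaf did not overlap between the classes. The call of Pclaf, like that of Rrm2, was lost in DESeq2.

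Between no-class and stem-like cells of the Lgr5+ experiment, more members were called lower than higher. Of 38 members, 3 were higher, a smaller share than the 23.1% of all genes. Lower members numbered 17 (22.7% of all genes), and the median log2 change was -0.22. Rrm2 had 39.0, 37.7, 49.6 and 36.3 CPM in stem-like and 62.8, 63.9, 78.4 and 70.6 CPM in no-class cells, so that every no-class value exceeded every stem-like one (log2 change 0.76, SE 0.11). Pclaf rose by 0.45 and Tk1 by 0.39, calls that were lost in DESeq2. The Pclaf call was also lost without Lgr5+Setdb1KO replicate 2, and without Lgr5+WT replicate 1 the lower members numbered 10 (median of all members -0.18). The 17 lower members were led by Ung (-0.71), Dtl (-0.68), Mcm2 (-0.60), Pola1 (-0.56), Mcm4 (-0.51) and Cdt1 (-0.51). The same 3 genes were higher in lineage-traced no-class cells (5.27% of all genes; Rrm2 0.69, Tk1 0.66, Pclaf 0.54), and 3 members were lower (6.93%; Mcm10 -0.70, Mcm5 -0.57, Mcm6 -0.51). None was higher without lineage-traced Setdb1-KO replicate 2, and none was lower without WT replicate 1, WT replicate 2 or Setdb1-KO replicate 1. Both lineage-traced counts, out of 35 members tested, were near the shares of all genes. Mitosis genes moved with the class as well: 16 of 27 were higher in Lgr5+ no-class cells (median 0.30) and 4 of 27 in lineage-traced ones, and their part in the difference was not tested.

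In the lineage-traced experiment 35 members passed the filter on low counts for the class comparison, since Cdc6, Cdc45 and Gins1 did not. All 35 were lower in enterocyte-like cells (27.7% of all genes; median -1.97), 30 in goblet-like cells (21.4%; median -1.16), 20 in Paneth-like cells (9.77%; median -0.88) and 15 in enteroendocrine-like cells (9.82%; median -1.08). Hells had 103, 83.9, 98.0 and 82.7 CPM in stem-like cells and 18.1, 31.2, 11.9 and 17.5 CPM in enterocyte-like cells, without overlap (log2 change -2.17, SE 0.24). Setdb1-KO replicate 1 held 27 enterocyte-like cells with 14 UMIs over all members, and WT replicate 2 held 26 enteroendocrine-like cells with 16. Single-gene values of these classes in these libraries therefore rest on very few UMIs. Mcm6 fell by 1.97 and Pcna by 1.36. Paneth-like cells need care with scaling. Their summed member level was 161 and 149 CPM (WT-labelled) and 326 and 231 CPM (Setdb1-KO-labelled) of all UMIs, and 743, 662, 979 and 791 CPM after TMM scaling. Without lineage-traced WT replicate 1, 4 of 32 members tested were lower in Paneth-like (median -0.75) and 7 of 32 in enteroendocrine-like cells (median -0.95). The share of all genes called in that setting is not given here.

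Other replication genes followed the members with few exceptions in Lgr5+ enterocyte-like cells. Of 51 tested in the Lgr5+ experiment, 46 were lower (32.5% of all genes) and 1 higher in enterocyte-like cells (median -1.90). The higher one was Pold4, a small accessory subunit of polymerase delta, at 0.90 (SE 0.09), and the most significant fall was that of Dut, which removes dUTP, at -2.70. Pold4 was also higher in goblet-like (0.93), tuft-like (1.31) and enteroendocrine-like cells (0.57), and in lineage-traced enterocyte-like (0.90) and goblet-like cells (0.95). Among 26 genes of G1/S control, 19 were lower (32.5% of all genes) and 3 higher in Lgr5+ enterocyte-like cells. The share of all genes higher in that class is not given here. Cdkn1a, an inhibitor of cyclin-dependent kinases, was higher by 3.69 (SE 0.14), and Cdk6, a G1 kinase, was lower by 2.87. Cdkn1a was also higher in enteroendocrine-like cells, by 6.28, and Cdkn1c, another inhibitor, by 7.01. Cdk4 was lower there by 1.58 and in goblet-like cells by 1.44.

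Members were next compared between cells with and without transcripts of mitosis. Stem-like, precursor-like and no-class cells were thinned, and cells with at least 3 UMIs of 27 mitosis genes per 1000 (Lgr5+) or 2 per 500 (lineage-traced) were set against cells with none. The mitosis genes defined these bins and are not a result. In the Lgr5+ experiment 17 members were higher (21.9% of all genes) and 14 lower (22%) in cells with mitosis UMIs. The cells with mitosis UMIs held more UMIs, 6478 to 12375 per cell on average against 4372 to 8290 in the cells with none, and the part of depth in the difference was not tested.

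The loaders and most helicase subunits were lower in cells with mitosis UMIs. Cdt1 had 43.3, 35.7, 43.2 and 43.1 CPM in cells with none and 20.4, 18.8, 18.0 and 17.4 CPM in cells with mitosis UMIs (log2 change -1.15, adjusted p = 1.59e-10). Cdc6 had 10.7, 8.2, 14.5 and 12.3 CPM against 5.3, 4.7, 5.6 and 5.1 CPM (-1.12). The helicase subunits followed with Mcm2 (-0.88), Mcm6 (-0.88), Mcm4 (-0.87), Mcm3 (-0.76) and Mcm5 (-0.34), each lower in 4 of 4 libraries. Mcm7 was the helicase subunit without a call, with 75.9 ± 11.3 CPM (SD, n = 4) in cells with none and 70.5 ± 6.59 CPM in cells with mitosis UMIs. The largest fall was that of Ung, from 40.5, 34.6, 56.9 and 52.2 CPM to 10.2, 9.1, 8.8 and 9.6 CPM (log2 change -2.25, SE 0.09, adjusted p = 3.48e-13). No library of Ung overlapped between the bins. Helicase activators went the other way, with Cdc45 (0.84), Mcm10 (0.73) and Gins2 (0.28) higher.

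Genes of nucleotide supply were higher instead. Tk1 had 54.9, 51.6, 50.4 and 62.4 CPM in cells with none and 154, 176, 166 and 161 CPM in cells with mitosis UMIs (log2 change 1.57, adjusted p = 2.62e-14). Rrm2 rose by 1.46, Tyms by 1.10 and Rrm1, the large subunit of ribonucleotide reductase, by 0.78. Pclaf rose most, from 110 ± 10.8 CPM to 421 ± 13.1 CPM (SD, n = 4; log2 change 1.92, SE 0.05, adjusted p = 1.33e-16). Clamp loader subunits were divided: Rfc5 (1.11) and Rfc4 (0.67) were higher, Rfc3 was lower (-0.20) and Rfc2 was not called.

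Enzymes that copy and join DNA were higher or not called. Pole (0.66), the flap nuclease Fen1 (0.64) and Pold1 (0.26), the catalytic subunit of polymerase delta, were higher. Pola1 had 20.4, 17.8, 15.5 and 18.2 CPM in cells with none and 20.1, 17.3, 17.6 and 18.0 CPM in cells with mitosis UMIs, with overlapping libraries (adjusted p = 0.991). Lig1 had 82.1 ± 5.04 against 86.8 ± 4.10 CPM (adjusted p = 0.137), and Slbp 123 ± 6.58 against 116 ± 7.21 CPM (adjusted p = 0.141). Prim1 rose by 0.37. Pcna fell by 0.28, Hells by 0.44 and Uhrf1 by 0.31, and the call of Uhrf1 was lost in DESeq2 and without either Setdb1KO library. Dnmt1 had 32.6 ± 0.458 against 34.6 ± 1.6 CPM (adjusted p = 0.238).

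**Figure D3:**
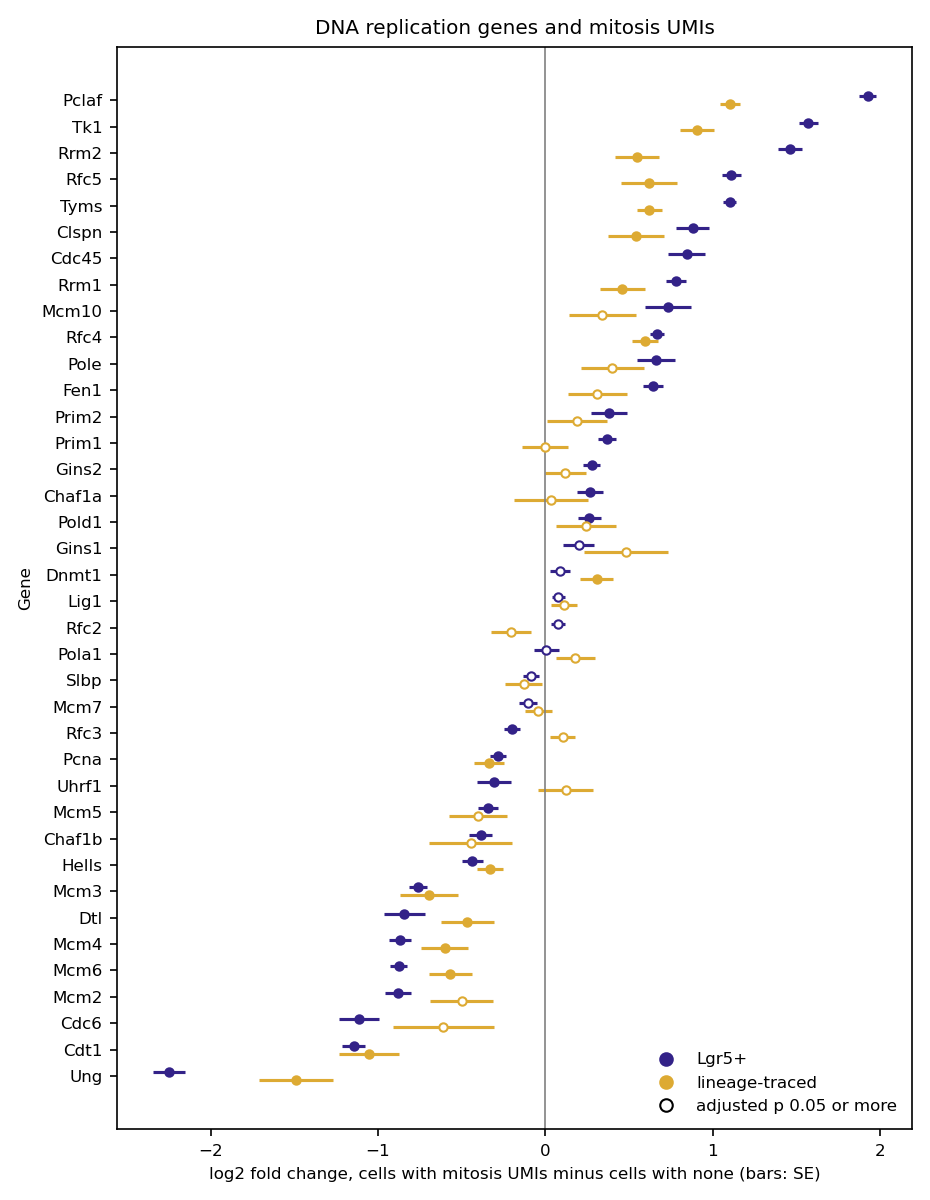
Log2 fold change of each gene in cells with mitosis UMIs against cells with none (x axis, bars SE), ordered by the Lgr5+ experiment (dark) with the lineage-traced one beside it (yellow); open points have an adjusted p of 0.05 or more. Pclaf, Tk1 and Rrm2 lie at the top and Ung, Cdt1 and Cdc6 at the bottom in the Lgr5+ experiment.

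In the lineage-traced experiment 9 of 37 members tested were higher (7.35% of all genes) and 8 lower (6.74%). Ung had 19.5, 19.9, 21.7 and 15.4 CPM in cells with none and 2.6, 4.5, 6.8 and 8.0 CPM in cells with mitosis UMIs, again without overlap (log2 change -1.49, adjusted p = 5.03e-07). Cdt1 fell by 1.06, Mcm3 by 0.69, Mcm4 by 0.60, Mcm6 by 0.57, Dtl by 0.47, Pcna by 0.34 and Hells by 0.33. Pclaf rose from 294, 280, 271 and 411 CPM to 621, 604, 633 and 833 CPM (1.10), and Tk1 (0.91), Tyms (0.62), Rfc5 (0.62), Rfc4 (0.60), Rrm2 (0.55), Clspn (0.54), Rrm1 (0.46) and Dnmt1 (0.31) were higher with it. These 17 calls numbered 6 in DESeq2, 4 higher and 2 lower. Without lineage-traced Setdb1-KO replicate 2 the counts were 4 higher and 5 lower. The shares of all genes called in these settings are not given here, so a loss of calls over all genes cannot be told apart.

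Of the Lgr5+ members with a promoter window, the E2F-type letters shown above were present in 9 of 13 that were lower in cells with mitosis UMIs (69.2%) and in 3 of 14 that were higher (21.4%). Ung, the gene with the largest fall, had no such letters in its window, whereas Pclaf, the gene with the largest rise, had them at -5. Among other replication genes of the Lgr5+ experiment, 26 of 52 were higher and 7 lower (21.9 and 22% of all genes). Dbf4, the activator of the origin-firing kinase Cdc7, rose from 13.9 ± 1.82 to 66.1 ± 5.07 CPM (log2 change 2.25), and Asf1b, a histone chaperone, rose by 1.49. Msh6, a DNA repair gene, fell (-0.68). Of the G1/S control genes 9 of 27 were higher and 8 lower, against the same shares of all genes, among them the kinase inhibitor Cdkn2d (3.70), E2f8 (1.44), Cdkn1c (-2.21) and Cdkn1a (-1.35).

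Members were also present together in single cells. Within stem-like, precursor-like and no-class cells of each library, cells at or above the 0.8 quantile of the thinned UMIs of the other 37 members were set beside those at or below the 0.2 quantile. The level of a member was on average 2.35 (Rfc5) to 9.77 (Cdc6) times as high in the upper cells in the Lgr5+ experiment, with a median of 3.49 over members, and 1.49 to 4.98 (Clspn) times in the lineage-traced one, with a median of 2.08. Rrm2 was 7.21, 8.14, 8.04 and 5.50 times as high in the 4 Lgr5+ libraries. The ratio of Cdc6 rests on as few as 10 UMIs in the lower cells of a library. The upper cells held on average 5651 to 11276 UMIs and the lower cells 4750 to 9099 in the Lgr5+ libraries, and 1701 to 3362 against 1796 to 2843 in the lineage-traced ones. The part of depth in these ratios was not tested, and no test was made on them.

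Whether replication genes differ with Setdb1 genotype was the next question. Over all kept Lgr5+ cells none of the 38 members was called in edgeR (1.34% of 13662 genes were called in either direction) or in DESeq2, and 2 had an unadjusted p below 0.05. Here and below, counts at an unadjusted p stand without the share of all genes at that p and are descriptions only. The median log2 change of the members was -0.06, against -0.01 over all genes, and libraries overlapped for 21 members. Setdb1KO lay above WT in 5 of the others and below in 12, and of all genes 50.2% did not overlap. Ung had the largest positive value, with 22.6 and 21.4 CPM in WT and 27.4 and 26.5 CPM in Setdb1KO (0.29, adjusted p = 0.147), followed by Pole, the catalytic subunit of polymerase epsilon (0.13, adjusted p = 0.596). Pola1 had the most negative value, with 17.8 and 16.2 CPM in WT and 12.8 and 15.2 CPM in Setdb1KO (-0.27, adjusted p = 0.281). Cdc45, the helicase activator, had 13.8 and 12.6 CPM in WT and 10.6 and 12.1 CPM in Setdb1KO (-0.22, adjusted p = 0.360).

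Among Lgr5+ stem-like cells, Ung was higher in Setdb1KO and was the only member called (0.791% of 11885 genes in either direction). It had 30.3 and 28.7 CPM in WT, from 550 and 494 UMIs, and 49.9 and 45.2 CPM in Setdb1KO, from 410 and 616 UMIs. The genotypes did not overlap, and the log2 change was 0.68 (SE 0.11, edgeR adjusted p = 0.0161). The call was kept in all 13 alternative settings, with adjusted p-values of 6.59e-06 to 0.0273. The members had a median log2 change of 0.12, with 33 of 38 above 0, and the 27 mitosis genes a median of -0.29, with all 27 below 0, none called by edgeR and 13 at an unadjusted p below 0.05. Stem-like cells were 46.2 and 45.9% of kept cells in WT and 30.9 and 26.8% in Setdb1KO, and the share of them with mitosis UMIs was 33.1 and 27.0% in WT and 20.4 and 25.3% in Setdb1KO. Ung was lower in cells with mitosis UMIs, and the part of that difference in the genotype comparison was not tested.

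In Lgr5+ no-class cells no member was called by edgeR (1.48% of 11309 genes in either direction), with 37 of 38 values above 0, a median of 0.21 and 14 members at an unadjusted p below 0.05. The share of all genes at that unadjusted p is not given here. Libraries of the genotypes did not overlap for 23 members, all with Setdb1KO above WT, as for 24.1% of all genes. Without Lgr5+WT replicate 1, 2 members were called higher (1.99% of genes). Rfc3, a clamp loader subunit, had 63.3 and 58.1 CPM in WT and 80.0 and 79.9 CPM in Setdb1KO (0.40, adjusted p = 0.0591). Ung had 20.4 and 17.4 CPM in WT and 28.4 and 25.7 CPM in Setdb1KO (0.51, adjusted p = 0.0842). In the other Lgr5+ classes no member was called by edgeR or DESeq2. The paper describes mature enterocytes, goblet, Paneth, tuft and enteroendocrine cells of this sort as co-purifying cells outside the GFP-positive population. Whether such cells had lost Setdb1 was not tested. In enterocyte-like cells 28 were tested (0.667% of all genes called; median 0.53; 7 at an unadjusted p below 0.05), in goblet-like cells 38 (0.311%; median 0.09; 0), in enteroendocrine-like cells 22 (0.0126%; median -0.45; 2), in tuft-like cells 15 (0.159%; median 0.50; 3) and in secretory precursor-like cells 15 (0%; median 0.06; 0). Leaving out a library brought calls in each of these classes. In enterocyte-like cells 3 members were higher without Setdb1KO replicate 2 (1.47% of genes) and 1 without WT replicate 2 (0.771%), in tuft-like cells 4 were higher without Setdb1KO replicate 1 (1.03%) and in precursor-like cells 1 without WT replicate 1 (0.183%). Without Setdb1KO replicate 2, 1 member was lower in enteroendocrine-like (1.08%) and 1 in goblet-like cells (1.06%).

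**Figure D4:**
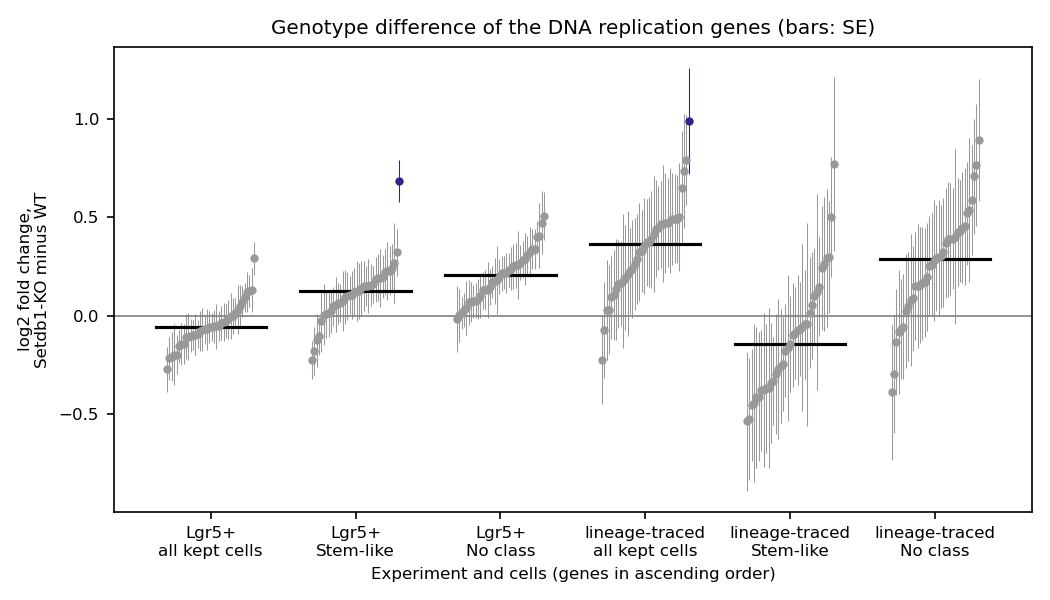
Log2 fold change of each replication gene, Setdb1-KO minus WT as labelled (y axis, bars SE), in 6 sets of cells (x axis), with genes in ascending order, black lines at the median, dark blue points for an adjusted p below 0.05 and grey points for the rest. Ung in Lgr5+ stem-like cells (0.68) and Pole in all lineage-traced cells (0.99) are the dark blue points.

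Over all kept lineage-traced cells 36 of 38 members had a positive log2 change in the libraries labelled Setdb1-KO, with a median of 0.36 against 0.01 over all genes, and 1 was called. In that comparison 1.54% of 12205 genes were called higher and 8.73% in either direction. With the replicate number as a block 10 members were called higher, given with the share of all genes in the closing paragraph. The gene called without a block was Pole, with 3.99 and 6.06 CPM in the WT-labelled and 7.99 and 10.8 CPM in the Setdb1-KO-labelled libraries (log2 change 0.99, SE 0.27, adjusted p = 0.0394). Its call was lost in DESeq2 (adjusted p = 0.171), with the UMI minimum raised (0.0627), without WT replicate 1 (0.624), without Setdb1-KO replicate 2 (0.102) and without the barcodes that resembled free RNA (0.0893). Without Setdb1-KO replicate 1, 6 members were called higher (7.58% of genes). Pola1 had 17.6 and 13.0 CPM in the WT-labelled and 28.0 and 25.8 CPM in the Setdb1-KO-labelled libraries (0.79, SE 0.23, adjusted p = 0.0539). The Pola1 value was past the threshold in 7 of 12 alternatives. The most negative values were those of Mcm10 (-0.23, adjusted p = 0.610) and Ung (-0.07, adjusted p = 0.90). Libraries of the Setdb1-KO label lay above those of the WT label for 25 of 38 members and 22.9% of all genes, and below them for 1 member. Without the barcodes that resembled free RNA no member was called by edgeR (8.6% of 12146 genes in either direction), 7 had an unadjusted p below 0.05, and the median was 0.37 with 35 members above 0.

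The size of the lineage-traced difference depended on the scaling. The summed level of the 38 genes was 864 and 803 CPM of all UMIs in the WT-labelled and 1635 and 1546 CPM in the Setdb1-KO-labelled libraries, a log2 difference of 0.93, and 0.40 after TMM scaling. The 27 mitosis genes had 870 and 752 CPM of all UMIs in the WT-labelled and 1532 and 1369 CPM in the Setdb1-KO-labelled libraries. With library totals as the only scaling the median log2 change of all genes moved by 0.52 to 0.54, and 25 members were called higher, as were 27.2% of all genes. With UMIs of Paneth markers and defensins left out of the totals the log2 difference of the sums was 0.42. The 4 libraries also differed in cell classes: stem-like and no-class cells, which hold most member UMIs, were 12.2 and 32.9% of WT replicate 1, 5.74 and 17.4% of WT replicate 2, 21.6 and 47.4% of Setdb1-KO replicate 1 and 11.6 and 49.4% of Setdb1-KO replicate 2. Their part in the difference was not tested.

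Within lineage-traced stem-like cells no member was called by edgeR or by DESeq2 among 37 tested (1.25% of 8456 genes in either direction), and none had an unadjusted p below 0.05. The median was -0.14, with 11 members above 0. Ung had 18.6 and 29.8 CPM in the WT-labelled and 16.5 and 13.5 CPM in the Setdb1-KO-labelled libraries (-0.54, adjusted p = 0.836), from 30, 12, 29 and 34 UMIs. In lineage-traced no-class cells no member was called (3.74% of genes in either direction), with a median of 0.29, 32 members above 0 and 4 at an unadjusted p below 0.05, and 2 were called higher without Setdb1-KO replicate 1 (2.24% of genes). Fewer members could be tested in the differentiated lineage-traced classes, and none was called by edgeR or DESeq2. Of all genes, 2.68% were called in goblet-like cells (29 members tested, 0 at an unadjusted p below 0.05, median 0.09), 1.87% in Paneth-like cells (7 tested, 1 at an unadjusted p below 0.05, median 0.49), 39.4% in enterocyte-like cells (6 tested, 0 at an unadjusted p below 0.05, median 0.25) and 3.96% in enteroendocrine-like cells (1 tested).

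**Figure D5:**
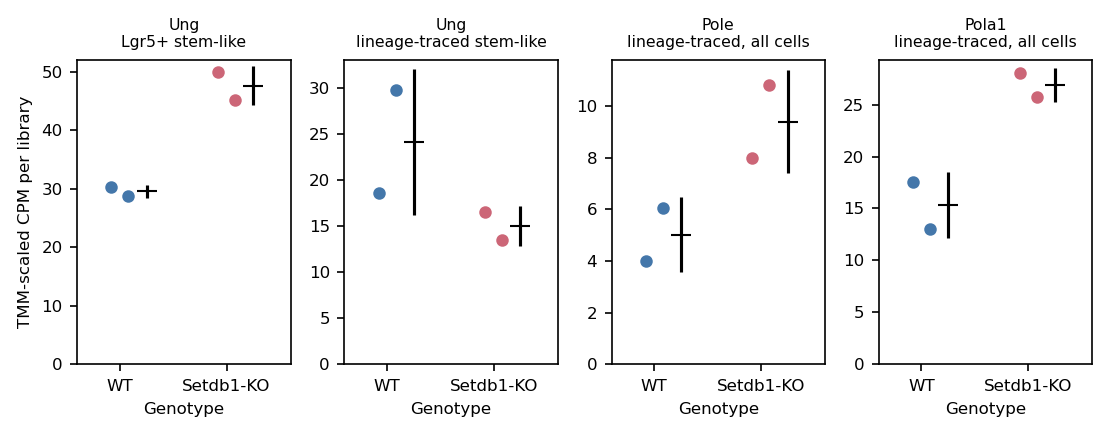
TMM-scaled CPM per library (y axis from 0) of Ung in stem-like cells of both experiments and of Pole and Pola1 in all lineage-traced cells, by genotype as labelled (x axis), with 1 point per library, horizontal ticks at the mean and vertical bars for the SD of 2 libraries. Ung lies at 28.7 to 30.3 CPM in Lgr5+WT and at 45.2 to 49.9 CPM in Lgr5+Setdb1KO stem-like cells.

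Whether the genotype effect differed between the experiments was tested as an interaction across all 8 libraries. Over all kept cells Pola1 was the only member called (7.58% of 13781 genes in either direction), with an effect larger by 1.06 on the log2 scale in the lineage-traced experiment (SE 0.25, adjusted p = 0.0230). The call was lost when 1 of 4 libraries was left out, Lgr5+WT replicate 1 (adjusted p = 0.0975), Lgr5+WT replicate 2 (0.0567), Lgr5+Setdb1KO replicate 1 (0.116) or lineage-traced WT replicate 2 (0.0763). Members with a larger effect in the lineage-traced experiment numbered 9 without lineage-traced Setdb1-KO replicate 1 (7.38% of genes) and 2 without its replicate 2 (2.1%). In stem-like cells no member was called (0.654% of genes; 2 at an unadjusted p below 0.05), and the effect of Ung differed by -1.19 (SE 0.32, adjusted p = 0.150). Of the other replication list, Pole2 (1.03, edgeR adjusted p = 0.0163) and Topbp1 (0.825, adjusted p = 0.0311) were called in the interaction over all kept cells. Cdkn1a of the G1/S control list was called there too (-2.35, adjusted p = 0.00015). Between genotypes, Cdkn1a was the only gene of G1/S control called in all kept lineage-traced cells (-1.58, adjusted p = 0.000458). No gene of the other replication list was called between genotypes there, and none of either list in all kept Lgr5+ cells.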

How the data were processed

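The 8 single-cell RNA-seq libraries were used, and the other 10 samples of the series were not used here. The authors deposited UMI counts per gene and barcode, neither normalized nor filtered for cells, and the submitters' processing notes name Cell Ranger 6.1.1 and mm10. The members and gene lists were chosen with earlier results of these data known, and class limits were set after marker shares were seen. Of 53 other replication genes, 52 were present in the tables. Doublets were kept, and an expected 0.8% per 1000 cells was removed as an alternative. Each class was named from fixed markers (for stem-like cells 10, with at least 2 marker UMIs), and cells within 0.5 on the log2 scale of a second class were set aside as mixed.

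UMIs were summed per library and class (at least 20 cells per library) and tested two-sided with edgeR 4.0.16 (R 4.3.3; filterByExpr, TMM, quasi-likelihood F test), with Benjamini-Hochberg adjustment over all genes and a threshold of 0.05. Class and mitosis comparisons had the library as a block, and genotype comparisons had no covariate. DESeq2 1.42.0 was an alternative. Scripts were tested on simulated data. Replicates are 2 independent samples per group, so that an SD over 2 values is imprecise. Named genes were, by a fixed rule, called members in genotype comparisons, the 2 largest and 2 most negative changes where fewer than 4 were called, 18 members chosen for their roles, Setdb1, and at most 2 genes per direction of the other lists. One gene that this rule names is not reported here. Members named beyond this rule (Dtl, Mcm3, Mcm4, Mcm7, Mcm10, Cdc45, Gins2, Fen1, Pold1, Rfc2, Rfc3, Rfc4, Rfc5, Rrm1, Prim2 and Clspn, and Pold4 in further classes) were chosen after their values were seen. Counts carry counting error only. Tables were made in Python 3.11.15 with pandas 2.3.3, scipy 1.17.1 and numpy 2.4.6.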

Additional observations from a re-analysis of the deposited data

Results flagged for a closer look

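Pola1, over all kept cells, was flagged because its genotype effect differed between the experiments by the interaction test. The log2 difference, lineage-traced minus Lgr5+, was 1.06 (SE 0.25, edgeR adjusted p = 0.0230). Pola1 was the only member called, while 7.58% of all genes were called in either direction. Its call was lost with some libraries left out, as given above. In stem-like cells the difference of Pola1 was 0.447 and was not called (edgeR adjusted p = 0.681). Pola1 had 17.8 and 16.2 CPM in Lgr5+WT and 12.8 and 15.2 CPM in Lgr5+Setdb1KO, and 17.6 and 13.0 CPM in the WT-labelled and 28.0 and 25.8 CPM in the Setdb1-KO-labelled lineage-traced libraries. Setdb1 was flagged by the same test, with a difference of 1.09 (SE 0.27, edgeR adjusted p = 0.0327). It was lower in all kept Lgr5+Setdb1KO cells (-0.85) and had a positive value in the lineage-traced libraries labelled Setdb1-KO (0.24). The Setdb1 call was lost without Lgr5+WT replicate 1 (adjusted p = 0.104), Lgr5+WT replicate 2 (0.0783), Lgr5+Setdb1KO replicate 1 (0.121) or lineage-traced WT replicate 2 (0.101).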

How the results depend on the processing

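Of 2725 alternative values, 651 counts and sums kept their size and 55 moved, and of single genes 1836 kept their direction and side of the threshold, 108 lost a call, 41 gained one and 34 reversed. The cause was not tested, except that library totals shift all genes over all lineage-traced cells (median by 0.52). Where a count stands below without the share of all genes, a change in calls over all genes cannot be told from a change in the members. In the Lgr5+ experiment the no-class members numbered 1 higher in DESeq2 and 10 to 18 lower with a library left out. In the lineage-traced classes DESeq2 called 8 lower in enteroendocrine-like (member median -0.85), 13 lower in Paneth-like (-0.85) and 1 higher in no-class cells (-0.18). Leaving out a library gave 7 to 14, 4 to 20 and 0 to 4 for these. No-class members lower were 0 with no filter, 6 with a stricter margin and 0 to 2 with a library left out. Between genotypes within Lgr5+ classes, no filter gave 3 higher in enterocyte-like, 1 lower in enteroendocrine-like, 2 higher in no-class and 1 higher in tuft-like cells, and leaving out a library gave 0 to 3, 0 to 1, 0 to 2 and 0 to 4, and 0 to 1 lower in goblet-like and 1 higher in precursor-like cells. In lineage-traced classes library totals gave 1 higher in Paneth-like and a left-out library 0 to 2 higher in no-class cells. Over all lineage-traced cells the members called higher were 0 in DESeq2, 2 with RLE, 0 with a raised UMI minimum, 25 with library totals (27.2% of all genes), 2 with a mitochondrial limit of 10%, 3 with no filter, 0 without free RNA-like barcodes (an alternative chosen after seeing the data) and 0 to 6 with a library left out. The interaction over all cells gave 23 with library totals (20.1% of all genes), 3 with no filter and 0 to 9 with a library left out. Lineage-traced mitosis calls were 4 higher and 2 lower in DESeq2, and 4 to 9 and 5 to 9 with a library left out. Without Paneth and defensin UMIs the summed log2 difference was 0.42 in all lineage-traced and 0.18 in no-class cells. The covariation median was 2.71 for cells from the 0.9 quantile up against those from the 0.5 quantile down.

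Reversed log2 values between genotypes in all lineage-traced cells were Mcm10 0.30 and Ung 0.46 with library totals (below the median of all genes, 0.54, there), and Ung -0.37 to 0.19 with a library left out. In mitosis comparisons a higher limit gave Pola1 -0.23, Lig1 -0.19, Dnmt1 -0.10 (Lgr5+) and Uhrf1 -0.21 (lineage-traced), a left-out library gave Pola1 -0.030 to 0.021 (Lgr5+), Uhrf1 -0.0001 to 0.35 and Prim1 -0.072 to 0.070 (lineage-traced), and DESeq2 gave Prim1 0.0097. In no-class cells a left-out library gave Uhrf1 -0.20 to 0.018 (Lgr5+), and in the lineage-traced ones no filter gave Pcna 0.028, Prim1 0.035, Lig1 0.11, Hells 0.041 and Slbp 0.13, and a left-out library Pcna -0.20 to 0.013, Prim1 -0.11 to 0.050, Lig1 -0.069 to 0.14, Hells -0.16 to 0.029 and Slbp -0.053 to 0.12. In Paneth-like cells Mcm2 was 0.012 in DESeq2 and -0.54 to 0.57 with a library left out, and Slbp was -0.17 with no filter, -0.044 with a stricter margin and -0.061 to 0.0007 with a library left out.

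With the replicate number as a block, 10 members were higher over all lineage-traced cells (7.73% of all genes), 1 in lineage-traced no-class (1.64%), 3 in Lgr5+ enterocyte-like (2.07%), 2 in Lgr5+ no-class (1.81%) and 1 in Lgr5+ tuft-like cells (0.529%). The numbers name samples only, and deviations of same-numbered libraries correlated at -0.034 and 0.071 (Lgr5+, all and stem-like cells) and 0.433 and 0.160 (lineage-traced).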
